A study of Homo sapiens with 6 samples.

Results

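Integrins are the receptors that hold a cell to the matrix around it, and laminins are the large glycoproteins that form the basement membrane a heart muscle cell rests in. Their genes were chosen by symbol, as every listed gene named ITGA or ITGB with a number, the integrin alpha genes named with a letter (ITGA2B, ITGAD, ITGAE, ITGAL, ITGAM, ITGAV and ITGAX), and LAMA, LAMB or LAMC with 1 digit. The rule found 38 of 38557 listed genes, 26 of them integrins and 12 laminins. No measured value entered this rule, but members and lists were chosen with earlier results of these data known. Expression was measured by RNA sequencing of 6 cultures of cardiomyocytes made from the established line WTC11, which is of human induced pluripotent stem cells and wild type by its label. One group of 3 was kept in RPMI with the serum-free supplement B27 (here the B27 medium), and the other group of 3 in DMEM with fatty acids (here the fatty acid medium). The labels give neither the composition of either medium, nor the age of the cells, nor the differentiation method, and all 6 cultures come from 1 cell line. The labels call the 3 libraries of a medium biological replicates without saying whether they were separate differentiations, so a p-value measures the spread between these libraries.

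An integrin is a pair of an alpha and a beta chain, and the alpha chain largely sets what the receptor binds: collagen, laminin, or proteins such as fibronectin and vitronectin that carry the short RGD motif. A laminin joins an alpha, a beta and a gamma chain, and its alpha chain carries the main sites for receptors on the cell. Heart and skeletal muscle cells are held to laminins that contain the alpha2 chain mainly by integrin alpha7beta1 and by dystroglycan, and loss of the LAMA2 chain causes a congenital muscular dystrophy.

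Each library held 23232324 to 31035389 gene counts, and integrin and laminin genes took 0.576% to 0.666% of them. Cardiomyocyte markers were abundant in both media: the 12 listed markers summed to 32200 to 39640 CPM in the B27 medium and to 26170 to 36400 CPM in the fatty acid medium, and 7 of the 12 had fitted log2 fold changes below 0, with a median of -0.08. CPM are counts scaled to a common library total, here with the TMM method. Markers of fibroblasts and other stromal cells summed to 4353 to 8491 CPM in the B27 medium and to 761.5 to 1962 CPM in the fatty acid medium, without overlap, and 12 of the 13 tested were lower in the fatty acid medium. The 8 smooth muscle markers summed to 1663 to 2221 CPM and to 425.1 to 1271 CPM, and the epicardial and epithelial markers to 2006 to 2440 CPM and to 904.1 to 1106 CPM, in the same order of media. Endothelial markers summed to 38.2 to 241.1 CPM and to 115.6 to 463.7 CPM, mostly KDR. KDR was higher on average in the fatty acid medium, with a log2 difference of 1.26. The other 3 tested endothelial markers, EMCN, TEK and TIE1, were lower on average there (log2 differences of -4.23, -2.13 and -0.97). In the fatty acid libraries EMCN had at most 7 counts and TEK at most 6, so both entered the test only through the B27 libraries. PECAM1, CDH5 and VWF reached at most 0.414 CPM. In these bulk libraries, fewer cells of a type and less RNA per cell cannot be told apart. The part of these marker differences in the integrin and laminin values below was not tested.

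Across the family, most integrin and laminin genes had lower fitted levels in the fatty acid medium, with log2 differences from -4.42 for ITGA4 to 0.71 for LAMA1. The 2 families were not tested against each other. Of the 38 genes, 30 had enough counts to be tested, 19 integrins and 11 laminins, among 16107 genes tested in all. A single member passed the test, edgeR's quasi-likelihood test with a Benjamini-Hochberg adjusted p under 0.05: ITGA11, the alpha chain of a receptor for fibrillar collagen, which fell. That is 1 of 30 members, beside 1.36% of all genes tested (1.07% lower and 0.292% higher). At an unadjusted p under 0.05 stood 8 integrins and 1 laminin, beside 17.7% of all genes. No laminin was called by this test, and DESeq2 called 1, LAMB3. Fitted log2 fold changes, given throughout as the fatty acid medium over the B27 medium, were below 0 for 17 of 19 integrins, with a median of -0.47, and for 8 of 11 laminins, with a median of -0.29. Over all genes tested 49.0% were below 0, with a median of 0.01. With library totals in place of TMM, the median over all genes was 0.12, and 14 of 19 integrins and 7 of 11 laminins were below 0. The direction of the laminins depended on 1 library. Without replicate 3 of the B27 medium, 4 of 11 laminins were below 0 (median 0.07), and 15 of 19 integrins (median -0.55).

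The 3 libraries of a medium carry the numbers 1 to 3, and libraries with the same number deviated together, so that the same fit was also made with the replicate number as a block. It called 7 members: ITGA1, ITGA4, ITGA7, ITGA11, ITGB3 and ITGB5 lower, and LAMA1, an embryonic laminin alpha chain, higher. Over all genes this fit called 4.78% (3.42% lower and 1.36% higher). Leaving out both libraries of number 1, 2 or 3, an analysis chosen after the data were seen, gave 12, 4 and 6 called members, beside 11.7%, 2.53% and 5.66% of all genes, and ITGA1, ITGA4, ITGA11 and ITGB3 were among them each time. The 3 values of a medium did not overlap with the other medium's for 8 members, all lower in the fatty acid medium: ITGA1, ITGA4, ITGA8, ITGA11, ITGAV, ITGB1, ITGB3 and LAMB3. Over all genes tested 12.8% were lower without overlap and 12.8% higher. In all 3 same-numbered pairs 15 members were lower, beside 24.0% of all genes.

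**Figure D1:**
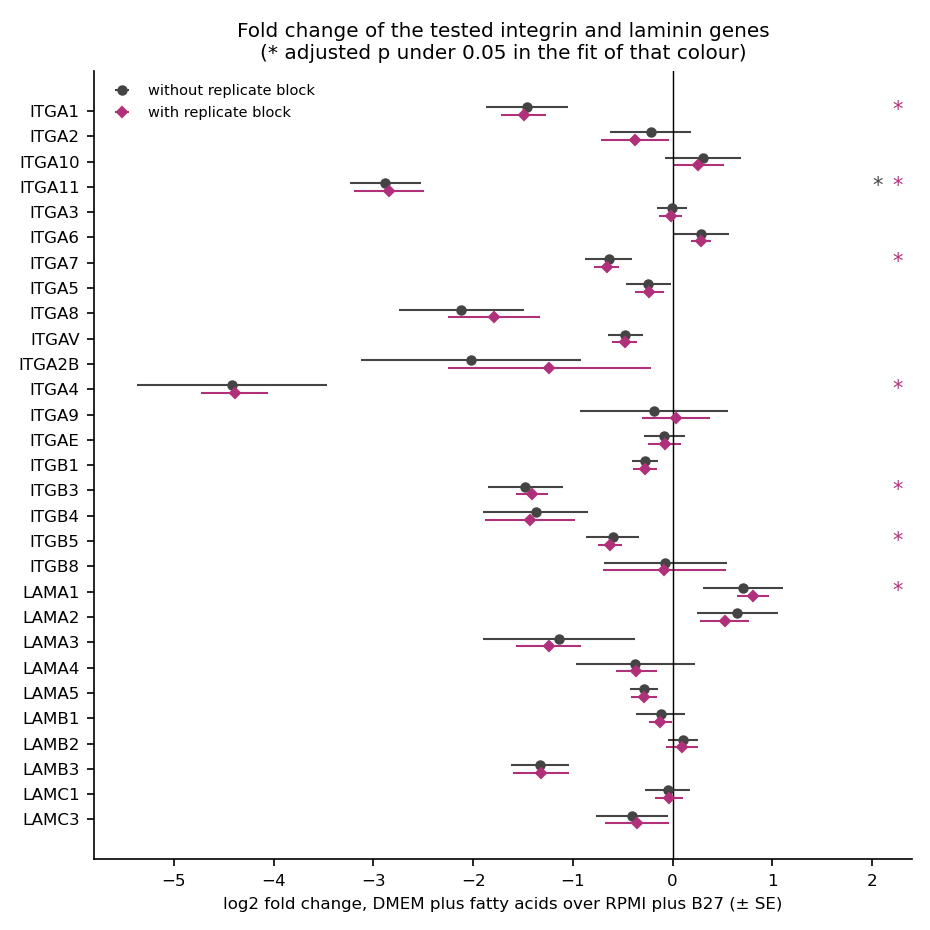
Fitted log2 fold change (fatty acid medium over B27 medium) with its standard error for 29 of the 30 tested integrin and laminin genes, without (grey) and with (purple) the replicate block, with an asterisk for an adjusted p under 0.05 in the fit of that colour. ITGA4 (-4.42) and ITGA11 (-2.88) lie farthest to the lower side and LAMA1 (0.71) farthest to the higher side, all without the block.

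Of the 4 collagen-binding alpha chains, ITGA11 fell, ITGA1 was called with the block only, and ITGA2 and ITGA10 were called in neither fit. ITGA11 pairs with beta1 on fibroblasts and other mesenchymal cells, where it binds collagen I. It stood at 56.4, 36.4 and 26.9 CPM in replicates 1 to 3 of the B27 medium and at 3.57, 7.39 and 5.25 CPM in those of the fatty acid medium. Every B27 value lay far above every fatty acid value. ITGA11 averaged 39.9 ± 15 CPM (SD, n = 3) and 5.40 ± 1.91 CPM, and it fell by 2.88 ± 0.36 (SE) on the log2 scale (edgeR adjusted p = 0.0292). Leaving out 1 library at a time moved the adjusted p to between 0.0380 and 0.0958, and the call held only without replicate 3 of the B27 medium, with log2 fold changes from -3.17 to -2.55.

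ITGA1, the alpha1 chain, binds collagen IV of basement membranes as well as collagen I. Its values were 229, 229.9 and 109.6 CPM in the B27 medium and 50.6, 109.3 and 46.6 CPM in the fatty acid medium. The groups only just failed to overlap, since replicate 3 of the first and replicate 2 of the second were almost equal. The log2 fold change was -1.46 ± 0.41. Its edgeR adjusted p was 0.134, and 0.0258 once the block was added, over a range of 0.00890 to 0.303 in 12 alternatives. ITGA1 overlaps PELO on the same strand, so reads shared by the 2 genes are uncertain.

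The other collagen-binding chains differed by less than their spread. ITGA2, the alpha2 chain known from platelets and epithelia, ranged from 14.3 to 16.6 CPM in the B27 medium and from 5.34 to 18.5 CPM in the fatty acid medium. ITGA10, the alpha10 chain best known from cartilage, was at 3.54, 4.38 and 2.42 CPM and then at 3.10, 6.45 and 3.17 CPM. The groups of both genes overlapped. ITGA10 had the largest fitted log2 fold change above 0 among the integrins, 0.30 ± 0.38 (edgeR adjusted p = 0.726). Summed per kilobase of exon, the 4 collagen-binding chains held 29.3, 27.6 and 15.4 CPM per kb in the B27 medium and 6.32, 14.5 and 7.35 CPM per kb in the fatty acid medium. Their share of all alpha chain transcripts was 8.72% ± 2.10 (SD, n = 3) and 4.56% ± 1.41.

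The promoters of ITGA11 and ITGA1 are shown because these collagen receptor genes were the collagen-binding members called in either fit. Both are the 250 bases before the annotated start, from RefSeq on GRCh38.p14, written 5′ to 3′ on the gene's own strand. The bases just after the start were found in a GENCODE transcript of ITGA1 but not of ITGA11, so the ITGA11 start is less certain. ITGA11 lies on the minus strand at chr15:68296532-68432163 and its promoter at chr15:68432164-68432413. ITGA1 lies on the plus strand at chr5:52787916-52959209 and its promoter at chr5:52787666-52787915. Capitals mark matches, on either strand, to the motifs searched.
ITGA11: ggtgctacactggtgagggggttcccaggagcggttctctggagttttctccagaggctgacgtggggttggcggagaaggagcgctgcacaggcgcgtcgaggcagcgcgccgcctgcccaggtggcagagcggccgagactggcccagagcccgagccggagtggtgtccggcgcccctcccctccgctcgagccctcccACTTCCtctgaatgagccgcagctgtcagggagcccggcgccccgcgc
ITGA1: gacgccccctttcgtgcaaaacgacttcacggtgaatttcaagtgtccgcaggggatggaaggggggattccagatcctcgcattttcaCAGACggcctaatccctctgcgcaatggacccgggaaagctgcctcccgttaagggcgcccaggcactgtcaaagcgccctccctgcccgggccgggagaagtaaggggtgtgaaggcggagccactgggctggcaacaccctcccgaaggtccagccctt
Searched on both strands were the motif of TEAD factors, GGAATG, the GC box, written GGGCGG, the core of the TATA box, TATAAA, the motif of SMAD factors, GTCTG, and that of ETS factors, GGAAGT. No match overlaps another in these windows. The ITGA11 window holds a single match, to the ETS motif, and the ITGA1 window a single match, to the SMAD motif, both on the opposite strand. Of 27326 promoters of this length, 19.9% hold the ETS motif and 37.9% the SMAD motif. The letters of the TEAD motif, the GC box and the TATA box, held by 12.0%, 42.2% and 11.2% of promoters, are in neither window. The base composition of both was rich in G and C, at 71.2% for ITGA11 and 62.0% for ITGA1, against a median of 57.6%. The promoter table held 26 of the 38 genes, and a match describes the letters only.

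**Figure D2:**
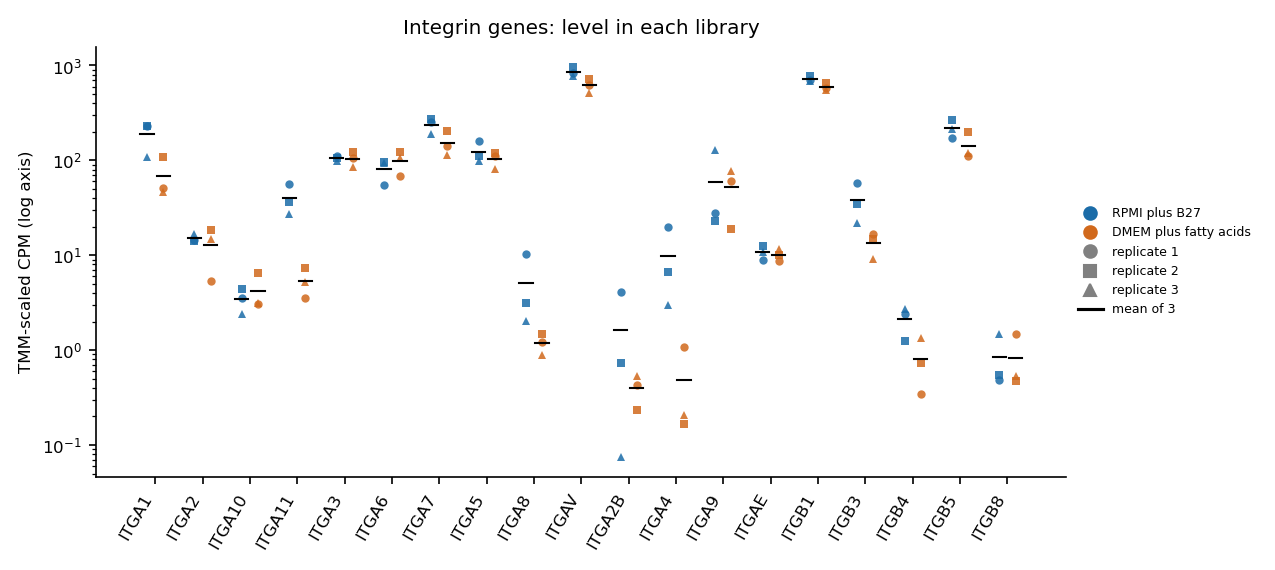
Level of each of the 19 tested integrin genes, in TMM-scaled CPM on a log axis, with 1 point for each of the 3 libraries of each medium. ITGAV and ITGB1 lie highest, with every fatty acid library below every B27 library, and ITGA4 and ITGA11 show the widest gap between media.

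Among the laminin-binding alpha chains, ITGA7 was called lower with the block only, and ITGA3 and ITGA6 were called in neither fit. ITGA7, the main laminin receptor chain of differentiated muscle, stood at 250.8, 273 and 189.9 CPM in the B27 medium and at 141.9, 202.6 and 114 CPM in the fatty acid medium. The groups overlapped, because replicate 2 of the fatty acid medium lay above replicate 3 of the B27 medium, yet within each number the fatty acid library was the lower one. Its difference was -0.64 ± 0.24 on the log2 scale. The edgeR adjusted p was 0.220, and 0.0398 in the blocked fit, over a range of 0.0398 to 0.421 in 12 alternatives. With the block and without both libraries of number 2 or of number 3, ITGA7 was not called. METTL7B overlaps ITGA7 on the opposite strand.

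ITGA6, the alpha6 chain of epithelial and early embryonic laminin receptors, was at 54.8, 97 and 93.8 CPM in the B27 medium and at 68.4, 123.4 and 106.9 CPM in the fatty acid medium. It was the only integrin higher in the fatty acid medium in all 3 same-numbered pairs, beside 25.8% of all genes tested, but its groups overlapped and its log2 fold change of 0.28 ± 0.28 did not pass (edgeR adjusted p = 0.642). ITGA3, which binds laminins with an alpha3 or alpha5 chain, was at 111.5, 104.9 and 98.1 CPM and then at 106.6, 121.5 and 85.1 CPM. ITGA3 differed by -0.01 ± 0.15, and by 0.10 with library totals. Together the 3 laminin-binding chains held 32.3% ± 1.13 of alpha chain transcripts per kilobase in the B27 medium and 35.9% ± 2.23 in the fatty acid medium.

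The RGD-binding chains were led by ITGAV, the alpha subunit of the vitronectin receptors. ITGAV was at 834.1, 974.7 and 767 CPM in the B27 medium and at 622.4, 722.7 and 509.7 CPM in the fatty acid medium. All 3 fatty acid libraries lay below the lowest B27 library. ITGAV differed by -0.47 ± 0.18 on the log2 scale and did not pass without or with the block (edgeR adjusted p = 0.222 and 0.0930). ITGA5, the fibronectin receptor chain, was at 158.5, 111.8 and 97.8 CPM and then at 110.1, 120.9 and 80.2 CPM, with overlapping groups and a log2 fold change of -0.24 ± 0.22. ITGA8, which binds nephronectin and is expressed by smooth muscle and mesenchyme, was low, at 10.3, 3.15 and 2.01 CPM in the B27 medium and at 1.21, 1.47 and 0.889 CPM in the fatty acid medium. The ITGA8 groups did not overlap, although replicate 1 of the B27 medium stood well above the rest. Its log2 fold change of -2.12 ± 0.63 had an edgeR adjusted p of 0.153, with a range of 0.00930 (DESeq2, which called it) to 0.301 in 12 alternatives. Without that library the log2 fold change was -1.12. ITGA2B, the platelet alphaIIb chain, reached 4.11 CPM in replicate 1 of the B27 medium and at most 0.723 CPM in the other libraries. Its log2 fold change of -2.02 ± 1.11 was 0.04 without that library.

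ITGA4 had the largest fitted difference of the family. Its alpha4 chain binds fibronectin and VCAM1 and is known from leukocytes, neural crest and the epicardium. ITGA4 was at 20.0, 6.64 and 3.02 CPM in the B27 medium and at 1.08, 0.167 and 0.208 CPM in the fatty acid medium. Every B27 value was above every fatty acid value, and both media spread widely. The log2 fold change was -4.42 ± 0.95. Its edgeR adjusted p was 0.0803, and 0.00642 with the block. Over 11 alternatives it ranged from 0.00194 (DESeq2) to 0.223 (without replicate 2 of the fatty acid medium). Replicates 2 and 3 of the fatty acid medium held 5 and 7 ITGA4 counts, so the gene entered the test through its other libraries. Leukocyte and platelet markers summed to 4.66 to 8.93 CPM in the B27 medium and to 3.34 to 4.56 CPM in the fatty acid medium. CD3E and GP9 had no counts. That list includes ITGA2B, itself an integrin described here, at 4.11 CPM in replicate 1 of the B27 medium. Neural crest and Schwann cell markers summed to 34.9 to 124 CPM and to 14.6 to 32.6 CPM, without overlap, and FOXD3 had no counts. The part of these cell types in the ITGA4 values was not tested. ITGA9, which also binds VCAM1 and tenascin, was highest in the number 3 libraries. It read 27.7, 22.8 and 127.5 CPM and then 60.2, 18.9 and 77.6 CPM, with a log2 fold change of -0.18 ± 0.74 that was 0.03 with the block.

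Leukocyte integrins other than ITGAE were near or below what these libraries can show. ITGAL had 0 counts in all 6 libraries, which allows up to 0.0967 to 0.129 CPM, counting error only. ITGAD, ITGAM, ITGAX, ITGB2 and ITGB7 had 0 to 12 counts per library and were not tested. ITGAE, the chain of a receptor for E-cadherin, was at 8.97, 12.6 and 10.8 CPM and then at 8.74, 10.2 and 11.6 CPM, with overlapping groups and a log2 fold change of -0.08 ± 0.20.

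Beta chains were led by ITGB1, the shared partner of most alpha chains above. ITGB1 was at 709.1, 766.5 and 693.2 CPM in the B27 medium and at 581.3, 656.5 and 553.8 CPM in the fatty acid medium. The groups did not overlap, with averages of 722.9 ± 38.6 and 597.2 ± 53.2 CPM. The log2 fold change of -0.28 ± 0.13 did not pass without or with the block (edgeR adjusted p = 0.327 and 0.231).

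ITGB5 and ITGB3, which pair with ITGAV to bind vitronectin, were called lower with the block only. ITGB5 was at 170.4, 269.3 and 212 CPM and then at 111.5, 199.7 and 119 CPM, with groups that overlapped in 1 library and a lower value in each pair. It differed by -0.60 ± 0.26 (edgeR adjusted p = 0.297, and 0.0438 with the block, over a range of 0.0438 to 0.543 in 12 alternatives). With the block, ITGB5 was called without both libraries of number 1, and not without those of number 2 or 3. ITGB3 was at 57.4, 34.6 and 21.7 CPM and then at 16.8, 14.9 and 9.16 CPM, without overlap. ITGB3 differed by -1.48 ± 0.38 (edgeR adjusted p = 0.113, and 0.0148 with the block, over a range of 0.00418 to 0.258).

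The remaining beta chains were rare. ITGB4, the partner of alpha6 in epithelial hemidesmosomes, was at 2.41, 1.23 and 2.72 CPM and then at 0.344, 0.736 and 1.33 CPM, with a log2 fold change of -1.37 ± 0.53 (edgeR adjusted p = 0.238). ITGB8, an alphaV partner that activates latent TGF-beta, ranged from 0.468 to 1.49 CPM over all 6 libraries and differed by -0.07 ± 0.62. ITGB6, an epithelial alphaV partner, was not tested. It had 79 and 39 counts in the 2 libraries numbered 3 and at most 3 counts elsewhere.

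**Figure D3:**
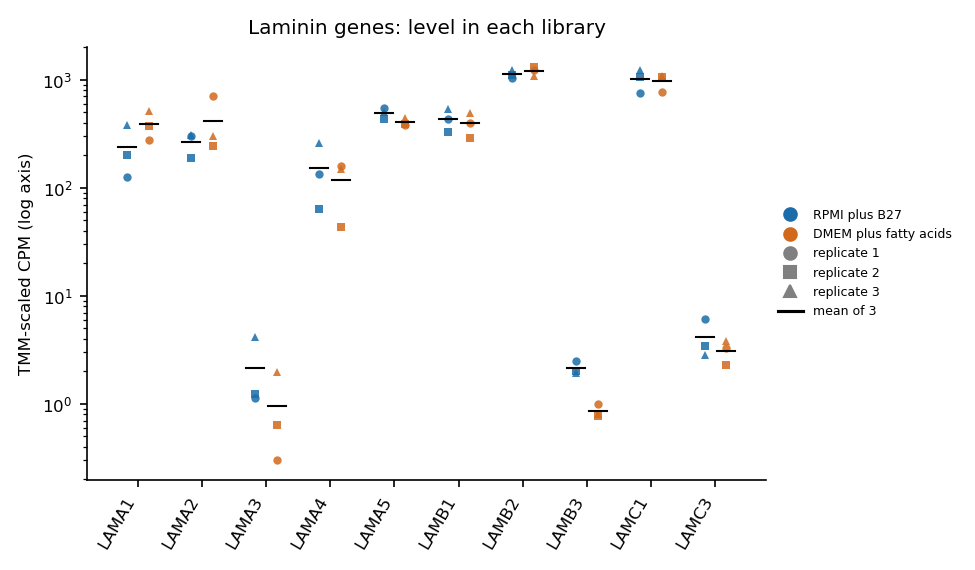
Level of 10 of the 11 tested laminin genes in TMM-scaled CPM on a log axis, with 1 point for each of the 3 libraries of each medium. LAMB2 and LAMC1 lie highest in both media, LAMA1 averages higher in the fatty acid medium with overlap, and LAMB3 is the only one shown whose media do not overlap.

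Laminin alpha chains had fitted differences of both signs. LAMA1, the alpha1 chain of the embryonic basement membrane, was at 126.7, 202.6 and 384.1 CPM in the B27 medium and at 277.1, 372.2 and 514 CPM in the fatty acid medium. The groups overlapped widely. In both media the number 1 library was the lowest and the number 3 library the highest, and the fatty acid library was the higher one in each of the 3 pairs. The log2 fold change was 0.71 ± 0.41 (edgeR adjusted p = 0.410, and 0.0491 with the block, over a range of 0.0491 to 0.645 in 12 alternatives). It was 0.40 without replicate 1 of the B27 medium, 0.45 without replicate 3 of the fatty acid medium and 1.24 without replicate 3 of the B27 medium. LAMA1 was also called with the block without both libraries of number 1 or 3, and not without those of number 2.

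LAMA2, the alpha2 chain of muscle laminin, stood out through 1 library. It was at 298.4, 189 and 305.6 CPM in the B27 medium and at 699.8, 244 and 299.4 CPM in the fatty acid medium. Replicate 1 of the fatty acid medium lay above all others, and the remaining 5 libraries overlapped. The log2 fold change of 0.65 ± 0.40 (edgeR adjusted p = 0.446) was 0.04 without that library.

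LAMA5, the alpha5 chain of most mature basement membranes, was at 542.8, 435.3 and 504.9 CPM and then at 380.1, 391.5 and 443.9 CPM. The groups overlapped slightly, and the fatty acid library was lower in every pair, with a log2 fold change of -0.29 ± 0.14 (edgeR adjusted p = 0.333). LAMA4, the alpha4 chain of vessels and mesenchyme that is also made by cardiomyocytes, was at 133.3, 63.1 and 258.4 CPM and then at 157.6, 43.1 and 149.9 CPM. Its log2 fold change was -0.38 ± 0.60, and 0.25 without replicate 3 of the B27 medium. LAMA3, an epithelial chain, stayed at or below 4.14 CPM in every library.

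The beta and gamma chains that most laminins share differed little. LAMB2, the beta2 chain of the neuromuscular and cardiac basement membrane, was at 1046, 1117 and 1221 CPM and then at 1236, 1320 and 1071 CPM. LAMB1, the beta1 chain, was at 430.2, 325.2 and 530.9 CPM and then at 400.7, 291.8 and 492.2 CPM. LAMC1, the gamma1 chain found in nearly all laminins, was at 750.6, 1058 and 1229 CPM and then at 775.6, 1067 and 1089 CPM. All 3 genes overlapped between media, with log2 fold changes of 0.10 ± 0.15, -0.12 ± 0.24 and -0.05 ± 0.23. For LAMB1 and LAMC1, libraries of the same number lay close together and the numbers lay far apart.

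LAMB3 and LAMA3, chains of epithelial laminins, were rare and had fitted log2 fold changes below 0. LAMB3 was at 2.49, 2 and 1.94 CPM in the B27 medium and at 0.990, 0.769 and 0.80 CPM in the fatty acid medium, without overlap and with little spread. Its log2 fold change of -1.33 ± 0.29 missed the threshold in edgeR without and with the block (adjusted p = 0.0807 and 0.0562) and passed it in DESeq2 (0.00600), over a range of 0.00600 to 0.258 in 12 alternatives. LAMA3 differed by -1.14 ± 0.76, by -0.26 without replicate 3 of the B27 medium, by -0.75 without replicate 1 of the fatty acid medium and by -2.18 without replicate 3 of the fatty acid medium. The epicardial and epithelial markers given above had a lower sum in the fatty acid medium, most of it KRT8 and KRT18. These averaged 1301 and 689 CPM in the B27 medium and 605.8 and 335.8 CPM in the fatty acid medium. Of the 7 tested markers, 6 had log2 fold changes below 0. The epithelial marker EPCAM did not (0.11), and CDH1 overlapped between media. The part of these markers in the LAMB3 and LAMA3 values was not tested. LAMC3, a chain of brain and retina, ranged from 2.27 to 6.10 CPM, and LAMB4 had at most 7 counts.

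Levels of different genes were compared per kilobase of exon. Of integrin beta chains, ITGB1 made up 75.8% ± 1.94 in the B27 medium and 81.0% ± 3.32 in the fatty acid medium. ITGAV made up 43.7% ± 2.4 and 42.8% ± 1.73 of alpha chains, followed by ITGA7 with 19.2% ± 1.61 and 16.7% ± 2.02. ITGA3 made up 7.90% ± 0.543 and 10.7% ± 0.574, without overlap, while its level per kilobase was 21.5 and 21.4 CPM per kb. Beta chains in all held 243 ± 18.9 and 188.2 ± 24.6 CPM per kb, in that order of media.

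Among laminin chains, LAMB2 was the most abundant per kilobase (195.8 and 209.9 CPM per kb) and LAMC1 the next (128.3 and 123.9 CPM per kb). LAMC1 made up 98.1% to 99.2% of gamma chain transcripts in every library. The mean shares of the alpha chains differed in order between media. LAMA5 made up 39.3% ± 8.18 of alpha chain transcripts in the B27 medium and 27.5% ± 5.85 in the fatty acid medium, LAMA2 24.1% ± 3.8 and 31.1% ± 13.8, and LAMA1 20.7% ± 7.72 and 30.7% ± 10.7. The LAMA2 share was 46.95% in replicate 1 of the fatty acid medium, and 24.48% and 21.86% in its replicates 2 and 3. The ranges of each of the 3 overlapped, so their order in the fatty acid medium is within the spread.

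Ratios within a library do not depend on library scaling, and 3 were compared. The log2 ratio of ITGA7 to ITGA5, a muscle laminin receptor against the fibronectin receptor, was 0.66, 1.29 and 0.96 in the B27 medium and 0.37, 0.74 and 0.51 in the fatty acid medium. It was lower in every pair and overlapped between media, with a difference of -0.43 (exact permutation p = 0.2, two-sided). The log2 ratio of LAMA2 to LAMA4 was 1.16, 1.58 and 0.24 and then 2.15, 2.50 and 1.00. It was higher in every pair, by 0.99, 0.92 and 0.76, although the groups overlapped (difference 0.89, exact permutation p = 0.3). The log2 ratio of LAMB2 to LAMB1 differed by 0.22 (exact permutation p = 0.7). A test of 3 against 3 libraries cannot give a p under 0.1, and an exact sign-flip test of 3 pairs cannot go under 0.25, which is what it gave for the first 2 ratios. Benjamini-Hochberg adjustment over the 3 ratios gave 0.45, 0.45 and 0.7.

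**Figure D4:**
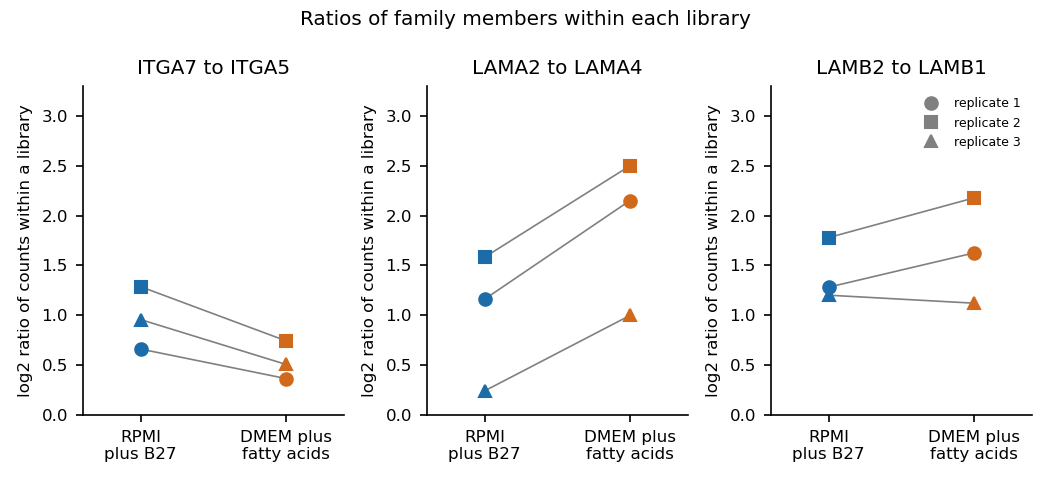
Log2 ratio of counts within each library for ITGA7 to ITGA5, LAMA2 to LAMA4 and LAMB2 to LAMB1, with lines joining libraries of the same replicate number. The LAMA2 to LAMA4 lines all slope upward, by 0.99, 0.92 and 0.76, while the ITGA7 to ITGA5 lines all slope downward.

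More of the spread lay between replicate numbers than between media in most laminins, as it did in most genes tested. For each gene the variance of log2 CPM over the 6 libraries was divided between medium, replicate number and remainder. The number has 3 levels and the medium 2, so the shares are read beside those of all genes. The number took more than the medium in 8 of 11 laminins (72.7%) and 10 of 19 integrins (52.6%), and in 58.6% of all genes tested. The median share of the medium was 47.7% in integrins, 17.0% in laminins and 25.5% in all genes. By gene, the medium took 94.4% for LAMB3 and 91.7% for ITGA11, and the number took 96.1% for LAMC1, 95.8% for LAMB1 and 89.2% for LAMA4.

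**Figure D5:**
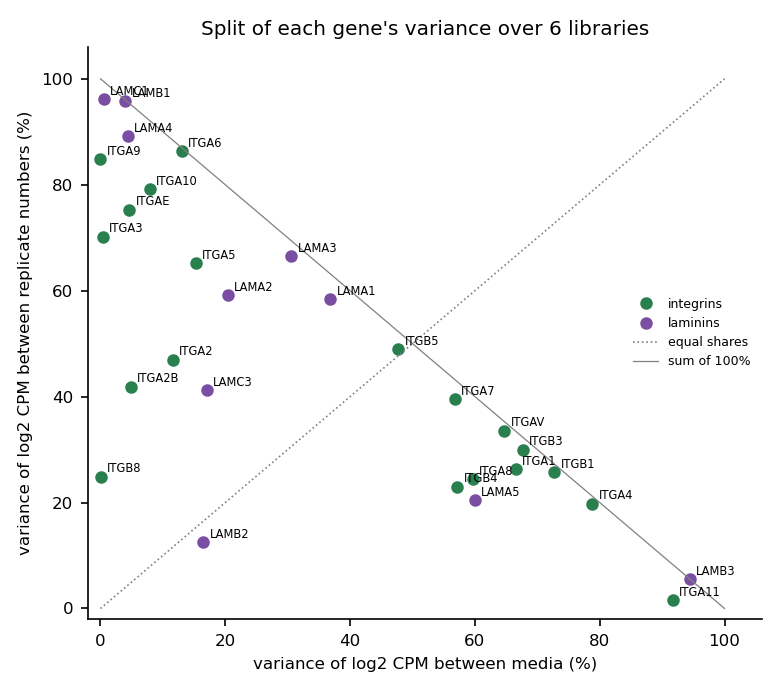
Share of the variance in log2 CPM over 6 libraries taken by medium and by replicate number, in percent, with 1 point for each of 29 tested integrin and laminin genes. LAMC1 and LAMB1 lie at the replicate number end, and ITGA11 and LAMB3 at the medium end.

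Partners of these receptors and chains were counted from the same fits in 4 lists, beside 1.07% of all genes called lower (3.42% with the block), 49.0% below 0 and a median of 0.01. No list was tested against other genes or against another list. Of 20 tested genes that share the basement membrane with laminin, 17 had fitted log2 fold changes below 0 (median -0.68), 3 fell and none rose. They were SMOC2 (-3.38 ± 0.43, edgeR adjusted p = 0.0292) and SPARC (-2.08 ± 0.37, 0.0492), both matrix-modulating secreted proteins, and NTN1 (-1.65 ± 0.25, 0.0397), a netrin guidance cue that is related to laminins. With the block 7 of 20 were called lower, beside 3.42% of all genes, and they included HSPG2, the proteoglycan perlecan (-1.05 ± 0.15 in that fit, edgeR adjusted p = 0.0237).

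Of 26 tested matrix and cell-surface proteins that integrins bind, 24 were below 0 (median -0.99). In this list 4 fell, beside 1.07% of all genes called lower, and none rose. These were tenascin TNC (-4.43 ± 0.77, edgeR adjusted p = 0.0471), TGFBI (-4.34 ± 0.66, 0.0402), fibrillin FBN1 (-3.25 ± 0.51, 0.0402) and periostin POSTN (-2.95 ± 0.50, 0.0446). FN1, fibronectin itself, differed by -2.57 ± 0.47, with an edgeR adjusted p of 0.0540, and 0.0486 after adding the block. With the block 8 of 26 were called lower, beside 3.42% of all genes. FBN1 and POSTN also belong to the list of fibroblast and stromal markers, of which 6 fell and whose median log2 fold change was -2.95. Their part in the ligand and integrin values was not tested.

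Focal adhesion genes encode the adaptors that couple integrins to actin inside the cell. Of 32 tested, 26 were below 0 (median -0.21), and 1 fell, beside 1.07% of all genes: CSRP1, a LIM protein of smooth muscle and other cells (-1.63 ± 0.29, edgeR adjusted p = 0.0492). With library totals that call was lost. With the block TNS1, a tensin, was also called (-0.90 ± 0.14 in that fit, edgeR adjusted p = 0.0275), which made 2 of 32 beside 3.42% of all genes. Of 29 tested laminin receptors other than integrins and their partners, 19 were below 0 (median -0.19), and 1 fell, beside 1.07% of all genes: SSPN, sarcospan of the dystrophin complex (-1.75 ± 0.29, edgeR adjusted p = 0.0427). With the block SGCB and DTNA were also called lower (-0.60 ± 0.12 and -0.51 ± 0.10 in that fit, edgeR adjusted p = 0.04599 and 0.04935). That made 3 of 29 beside 3.42% of all genes. DAG1, which encodes dystroglycan, differed by 0.17 ± 0.20 and DMD, dystrophin, by -0.26 ± 0.20, and neither passed.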

How the data were processed

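RNA was measured in 6 libraries of WTC11 cardiomyocytes, 3 per medium, grouped by sample title. The authors deposited whole-number counts by gene symbol, not normalized. Reads were aligned to hg38 with STAR and counted with HTSeq, per the submitters' processing notes, from stranded mRNA libraries, per the labels' protocols. Versions, annotation and the strand setting of counting are not given in the sources used here, so genes with overlapping or antisense neighbours are uncertain. Summary rows, 12.8% to 15.6% of each library, were left out.

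Testing used edgeR 4.0.16 under R 4.3.3 (filterByExpr with minimum count 10, TMM, quasi-likelihood test over all 6 libraries, Benjamini-Hochberg over 16107 genes, threshold 0.05). Standard errors follow from the F statistic. The code was tested on simulated data. Ratios within a library used counts plus 0.5 and exact two-sided permutation tests. Exon lengths came from GENCODE, and positions and promoters from RefSeq GRCh38.p14. The alternatives were the replicate block, DESeq2 1.42.0, RLE scaling, library totals, other count filters, another prior for ratios and leaving out each library.

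Deviations from the medium's mean correlated across genes at 0.31, 0.40 and 0.36 for libraries with the same number and at -0.24 to -0.13 for the others, so the numbers were taken to pair the libraries. What a number stands for is not in the labels. Libraries differed by more than sampling noise (chi-square per degree of freedom at least 31.5). The biological coefficient of variation was 25.6%, and 18.2% with the block. Without molecular identifiers, limits from counts cover counting error only.

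Members and lists were chosen with earlier results of these data known. Full values are given for ITGB1, ITGA7 and LAMA2, members called in either fit, the 3 most abundant of each chain type, and the 3 largest fold changes in each direction. The other members are given by values or ranges, except that 1 tested laminin is not reported here and enters only the counts and medians of the family. Up to 4 called genes of each list are named, with FN1, DAG1 and DMD added after their values were seen.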

Additional observations from a re-analysis of the deposited data

How the results depend on the processing

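The number of called integrin and laminin genes was 1 with RLE scaling, with library totals and with at least 10 counts in every library. It was 7 with the replicate block, 6 with DESeq2 and 3 without a count filter, and 0 to 1 when each library was left out. With the replicate block and without number 1, 2 or 3 it was 12, 4 and 6. Over all genes the 219 calls became 770 with the replicate block, 1232 with DESeq2, 539 without a filter, 119 with the strict filter, 3 to 131 when each library was left out, and 1898, 413 and 913 with the block and without number 1, 2 or 3. With the replicate block, DESeq2 and no filter, basement membrane partners called were 7, 9 and 5 (0 to 1 when each library was left out). Other integrin ligands called were 8, 10 and 9 (0 to 3 when each library was left out, and 2 with the strict filter). Focal adhesion genes called were 2, 6 and 3 (0 with library totals or the strict filter, 0 to 1 when each library was left out). Other laminin receptors called were 3 with the replicate block, 4 with DESeq2, 0 with the strict filter and 0 to 1 when each library was left out. The fits that leave out a library have fewer samples and assume that the remaining ones vary alike. The cause of the other shifts was not tested. The ratios of ITGA7 to ITGA5 and LAMA2 to LAMA4 kept their direction under every alternative run, and that of LAMB2 to LAMB1 was -0.05 without replicate 2 of the fatty acid medium. None can pass a threshold of 0.05 in this design.

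Of 344 log2 fold changes of the reported members under alternatives, 302 kept direction and side, 13 passed the threshold that the value without the block had missed, 5 lost it and 24 turned sign. The 5 were ITGA11 without 1 library. The sign turned in 10 members, none of them called in these alternatives. The block fits without both libraries of 1 number are not among the 344. In those, ITGA9 and LAMA4 were called lower without number 1, and ITGA2B without number 3. With library totals ITGA3 was 0.0975, ITGAE 0.0294, ITGB8 0.024 and LAMC1 0.062, without a filter ITGA3 was 0.0086, and with the replicate block ITGA9 was 0.0302. When each library was left out, ITGA2 ranged from -0.56 to 0.14, ITGA10 from -0.13 to 0.51, ITGA3 from -0.13 to 0.13, ITGA2B from -2.58 to 0.039, ITGA9 from -0.59 to 1.05, ITGAE from -0.20 to 0.0395, ITGB8 from -0.76 to 0.63, LAMA4 from -0.75 to 0.25, LAMB1 from -0.30 to 0.0663 and LAMC1 from -0.23 to 0.11. Without replicate 3 of the B27 medium, 4 of 11 laminins were below 0, with a median of 0.07. Members with few counts, such as ITGA2B, ITGB8 and LAMA3, are limited by depth, and the 8 untested ones cannot be compared.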
